A study of Mus musculus with 4 samples.

Results

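The MYC family genes Myc, Mycn and Mycl, their obligate partner Max, and the Max-binding repressors Mxd1, Mxd3, Mxd4 and Mxi1 were read by gene symbol in a table of 54446 mouse genes. All 8 genes were found, 1 row each, and 7 of them had a level above 0 in all 4 libraries. Mxd3 was listed at 0 in 1 library. The libraries were made from wild type C57BL/6 mammary gland cells that were sorted, embedded in Matrigel and grown in 3D. Cells labelled basal and cells labelled luminal were each treated with DMSO, the control, or with 100 μM baicalin, a flavonoid of Scutellaria roots, and the medium of all cultures held EGF and an insulin supplement. Each condition is 1 library, so no spread between cultures could be measured and no test between conditions was made. The age of the mice and the number pooled per library are not given in the labels.

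MYC, MYCN and MYCL are transcription factors that bind DNA only as a pair with MAX. The pair binds the E-box, most often the letters CACGTG, and raises the transcription of genes for ribosome production, nucleotide and polyamine synthesis and growth. The MXD proteins and MXI1 compete for MAX and for the same E-boxes, and recruit SIN3 and histone deacetylases to repress transcription. MYC drives growth of the mammary epithelium and is often amplified in breast cancer.

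Levels are given in FPKM, fragment counts divided by exon length and by library size. The length is that of all exons of a gene merged, from 2369 bases for Mxd3 to 8483 for Mxd4. A gene read mostly from a shorter transcript would get too low a level, and transcripts were not measured. Comparisons between genes, such as orders and sums of levels, hold within that limit. The depth behind the deposited values was estimated from the steps of the low ones, at 19356099 to 20648783 fragments per library. The fragments behind each gene were recovered from its FPKM, its exon length and this depth. Summed over genes they were somewhat more than the depth in each library, 19818946 to 21229229. The recovered fragments give 95% intervals, which cover counting error only and not differences between cultures. A change is given as the ratio of FPKM with its interval, or as log2 of the ratio with 1 FPKM added to both levels. A change of more than 1 on that scale is used as the threshold, over the 17787 genes that were above 0 FPKM in each of the 4 libraries.

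The basal and luminal markers did not follow the labels. With DMSO, the label luminal went with higher levels of all 10 basal markers and lower levels of all 10 luminal markers, and the same held with baicalin. Krt5, a basal keratin, had 128 FPKM with the label basal and 2015 FPKM with the label luminal in the DMSO libraries. Krt14, its keratin partner, had 1494 and 2308 FPKM in the same order, and the smooth muscle actin gene Acta2 had 7.66 and 555 FPKM. The simple epithelial keratins Krt8 and Krt18 had 1573 and 1408 FPKM with the label basal, and 383 and 298 FPKM with the label luminal. "Labelled" is therefore used throughout, and directions between the labels hold for the labels alone. Over the 4 libraries, the summed level of 10 fibroblast markers was 3.39 to 11.8 FPKM, and that of 10 endothelial markers 1.79 to 7.01 FPKM. The 10 immune markers summed to 6.01 to 54.6 FPKM. Most of the highest sum, in the baicalin library labelled basal, was Cd68, a lysosomal gene, at 51.5 FPKM, and Ptprc, Adgre1 and Itgam were at 0 in that library. Hormone-sensing luminal markers summed to 77.9 to 192 FPKM, and alveolar luminal markers to 80.7 to 327 FPKM. The hormone-sensing markers were mixed between the labels. With the label luminal 5 were higher and 4 lower with DMSO, and 5 higher and 5 lower with baicalin. Of the alveolar markers 2 were higher and 7 lower with the label luminal with DMSO, and 2 higher and 6 lower with baicalin.

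The canonical E-box was looked for in promoter windows of 300 bases, from 250 before to 50 after the start of the transcript, in RefSeq sequences on GRCm38.p6. Windows were at hand for 7 of the 8 genes, all but Myc, with 9 windows in all, 3 of them for Mxi1. CACGTG, which reads the same on both strands, was found in Max and Mxd4. Among all genes it was in 8.09% of 27025 genes and 7.15% of 32851 windows. The related letters CACGCG, searched on both strands, were found in Mycl, and in 10.49% of all genes and 9.27% of all windows. The stretches are shown because they hold the letters that pairs with MAX are known to bind, with the motif in capitals, 5′ to 3′ on the strand of the gene. They lie at chr12:76962234-76962263 (minus strand), where the motif begins 3 bases before the RefSeq start of Max, at chr5:34187912-34187941 (minus strand), 219 bases before that of Mxd4, and at chr4:122995899-122995928 (plus strand), 20 bases before that of Mycl. These RefSeq transcript starts differ from the outer gene bounds given with each gene, which come from GENCODE. By those bounds the motifs of Max and Mxd4 lie upstream of the gene, and that of Mycl lies inside it.
Max: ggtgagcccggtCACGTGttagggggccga
Mxd4: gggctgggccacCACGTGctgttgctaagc
Mycl: ccaagccccgggCACGCGacgagatataaa
A match is a description of the letters, and binding was not measured here. Neither motif was found in the windows of Mycn, Mxd1, Mxd3 and Mxi1.

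Myc was the most abundant of the 8 genes in 3 libraries, and it was higher with baicalin with both labels. Myc (ENSMUSG00000022346, GRCm38 chromosome 15, 61985391 to 61990374, plus strand) had 37.7 FPKM with DMSO and 81.5 FPKM with baicalin in the libraries labelled basal. In the libraries labelled luminal it had 14.6 FPKM with DMSO and 40.8 FPKM with baicalin. Both baicalin libraries lay above both DMSO libraries, and the baicalin library labelled luminal was only just above the DMSO library labelled basal. Their 95% intervals, 39.2 to 42.5 and 36.1 to 39.4 FPKM, overlapped slightly. The ratio of baicalin to DMSO was 2.16 (95% interval 2.05 to 2.28) with the basal label, and 2.79 (2.57 to 3.03) with the luminal label. On the log2 scale the changes were 1.09 and 1.42. Of the genes above 0 in all libraries, 288 had a larger rise with the basal label and 177 with the luminal label. The log2 change was 0.33 larger with the luminal label, a difference that cannot be tested with 1 library per condition.

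**Figure D1:**
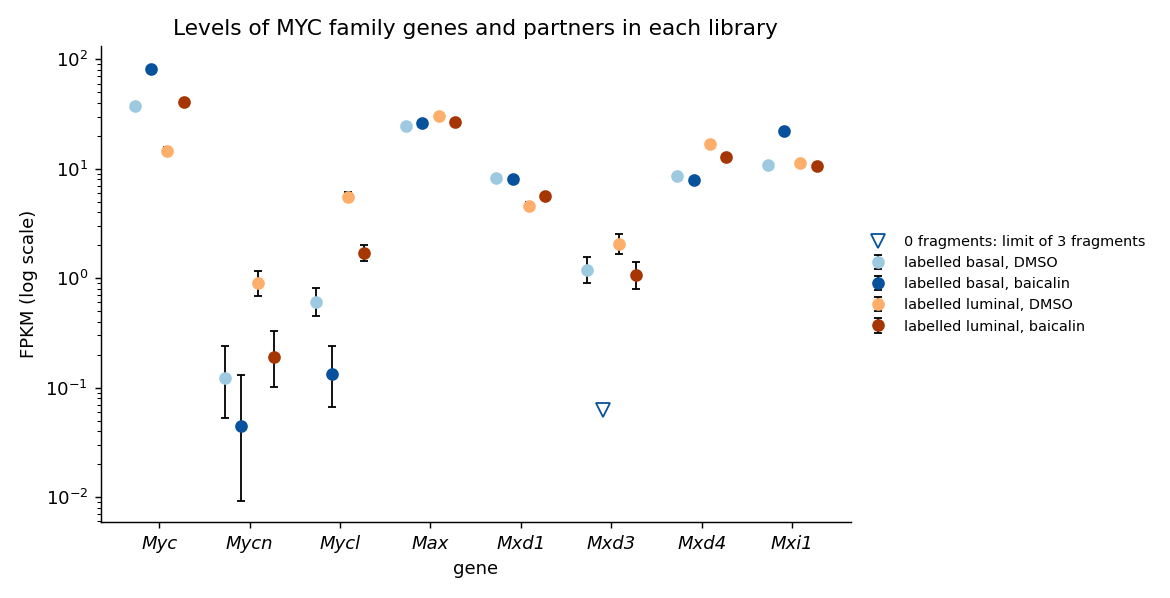
FPKM of each gene on a log axis, 1 point per library, with 95% intervals for counting error; the open triangle marks the level that 3 fragments would give where 0 were counted. Myc, Max, Mxi1, Mxd4 and Mxd1 lie above 4 FPKM in all 4 libraries, Mycn lies below 1 FPKM in all 4, and Mxd3 has no fragment in the baicalin library labelled basal.

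The other MYC genes were low. Mycl was lower with baicalin with both labels, and Mycn with the luminal label. Mycl (ENSMUSG00000028654, chromosome 4, 122995652 to 123002485, plus strand) encodes L-MYC, which binds DNA with MAX as MYC does. It had 0.611 FPKM with DMSO and 0.134 FPKM with baicalin in the libraries labelled basal, from 49 and 11 fragments. In the libraries labelled luminal it had 5.54 and 1.72 FPKM, from 433 and 143 fragments. Both luminal-labelled libraries were above both basal-labelled ones, and within each label the baicalin library was the lower. The ratio was 0.220 (0.103 to 0.428) with the basal label and 0.310 (0.254 to 0.375) with the luminal label. On the log2 scale with 1 FPKM added these are -0.51 and -1.27, so the added FPKM shrinks the change at the lower level. Mycn (ENSMUSG00000037169, chromosome 12, 12936093 to 12941914, minus strand), which encodes N-MYC, had 8 fragments with DMSO and 3 with baicalin with the basal label, which are 0.122 and 0.0449 FPKM. Their ratio of 0.367 had an interval of 0.0627 to 1.53, so no difference was detectable at this depth. Mycn had, with the luminal label, 0.909 FPKM with DMSO and 0.191 FPKM with baicalin, a ratio of 0.210 (0.106 to 0.388).

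Myc therefore made up nearly all of the summed MYC gene level in most libraries. Its share of the sum of Myc, Mycn and Mycl was 98.1% with DMSO and 99.8% with baicalin in the libraries labelled basal. In those labelled luminal it was 69.4% with DMSO and 95.5% with baicalin. The DMSO library labelled luminal stood apart, with the lowest Myc and the highest Mycl and Mycn.

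Max, which pairs with all the other proteins of the family and holds CACGTG in its promoter window, varied least over the 4 libraries. Max (ENSMUSG00000059436, chromosome 12, 76937269 to 76962201, minus strand) had 24.6 FPKM with DMSO and 25.9 FPKM with baicalin with the basal label, and 30.1 and 26.6 FPKM with the luminal label. The ratio was 1.05 (0.987 to 1.12) with the basal label, an interval that includes 1, and 0.883 (0.83 to 0.94) with the luminal label. A gene that overlaps Max on the same strand, Gm47218, had 1.03 to 3.72 FPKM, and how fragments in the shared stretch were counted is not known.

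Of the repressors, Mxi1 was higher with baicalin with the basal label. Mxi1 (ENSMUSG00000025025, chromosome 19, 53310518 to 53375810, plus strand) had 10.8 FPKM with DMSO and 22.1 FPKM with baicalin in the libraries labelled basal. It had 11.3 and 10.7 FPKM in those labelled luminal. Of the 4 libraries, 3 lay within 10.7 to 11.3 FPKM and the baicalin library labelled basal stood apart. The ratio was 2.05 (1.93 to 2.19) with the basal label and 0.943 (0.878 to 1.01) with the luminal label. Its log2 change of 0.97 with the basal label lay just under the threshold, and 408 genes had a larger rise there. The log2 change was 1.05 lower with the luminal label than with the basal label (-0.08 against 0.97). This was the widest gap between the labels on that scale among the 7 genes above 0 in all libraries, and it was not tested. The recovered fragments of Mxi1, unlike those of the other 7 genes, were not whole, so its intervals are approximate. On the opposite strand Mxi1 overlaps AC133451.2 by 5146 bases, a gene for which no level was at hand. It also overlaps Gm10197 there by 201 bases, a gene with 0 to 0.251 FPKM. In the pair of libraries labelled basal the summed level of the 10 basal markers was 1776 FPKM with DMSO and 480 FPKM with baicalin, and that of the 10 luminal markers 4550 and 3260 FPKM. With the label luminal the sums were 5376 and 7192 FPKM, and 1411 and 1225 FPKM. By gene, 1 basal marker was higher and 9 lower with baicalin with the basal label. With the luminal label 5 were higher and 5 lower, with a median log2 change of -0.16, so the higher sum is not shared by the list. Of the luminal markers 4 were higher and 6 lower with the basal label, and 3 higher and 7 lower with the luminal label. The part of these markers in the changes of Mxi1 and of the other genes was not tested.

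Mxd4, which holds CACGTG in its promoter window, and Mxd1, repressors with the same partner, had ratios of baicalin to DMSO between 0.767 and 1.22. Mxd4 (ENSMUSG00000037235, chromosome 5, 34173883 to 34187720, minus strand) had 8.67 FPKM with DMSO and 7.94 FPKM with baicalin with the basal label, and 16.8 and 12.9 FPKM with the luminal label. The ratios were 0.916 (0.850 to 0.987) and 0.767 (0.725 to 0.811), both below 1. Mxd1 (ENSMUSG00000001156, chromosome 6, 86647042 to 86669161, minus strand), known for its rise as cells stop dividing and differentiate, had 8.16 and 8.05 FPKM with the basal label, and 4.6 and 5.64 FPKM with the luminal label. The ratio was 0.987 (0.908 to 1.07) with the basal label and 1.22 (1.10 to 1.36) with the luminal label. Mxd4 was higher in the luminal-labelled libraries and Mxd1 in the basal-labelled ones, with either treatment. Gm44292, a gene that overlaps Mxd1 by 2364 bases on the same strand, had 0.234 to 0.437 FPKM. How fragments in that stretch were counted is not known. Gm42846, a gene antisense to Mxd4 with an identical stretch of 357 bases, was at 0 in all libraries.

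Mxd3, a repressor of the same family that is known to be made in S phase of dividing cells, was lower with baicalin with both labels. Mxd3 (ENSMUSG00000021485, chromosome 13, 55325168 to 55329823, minus strand) had 1.19 FPKM with DMSO, from 56 fragments, and 0 with baicalin in the libraries labelled basal. It had 2.07 FPKM (95 fragments) with DMSO and 1.06 FPKM (52 fragments) with baicalin in those labelled luminal. With the basal label the 95% interval of the ratio of baicalin to DMSO ended at 0.0666. In place of the 0, 3 fragments would give 0.0624 FPKM, 19.1-fold lower than the counted level with DMSO. The ratio was 0.513 (0.359 to 0.727) with the luminal label. Of 11158 genes with at least 52 fragments in each of the other 3 libraries, 3 were at 0 in the baicalin library labelled basal, and these were Mxd3, Wfdc5 and Wif1. The limit of 52 was set from the lowest count of Mxd3 in those libraries, so Mxd3 is among them by choice. Mxd3 shares 105 bases on the opposite strand with Prelid1, which had 62.8 to 76.9 FPKM. The 20 proliferation markers moved with Mxd3. Their summed level was 520 FPKM with DMSO and 114 with baicalin with the basal label, and 560 and 293 with the luminal label. Their part in the change of Mxd3 was not tested. In bulk RNA, fewer dividing cells and less RNA per cell cannot be told apart.

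**Figure D2:**
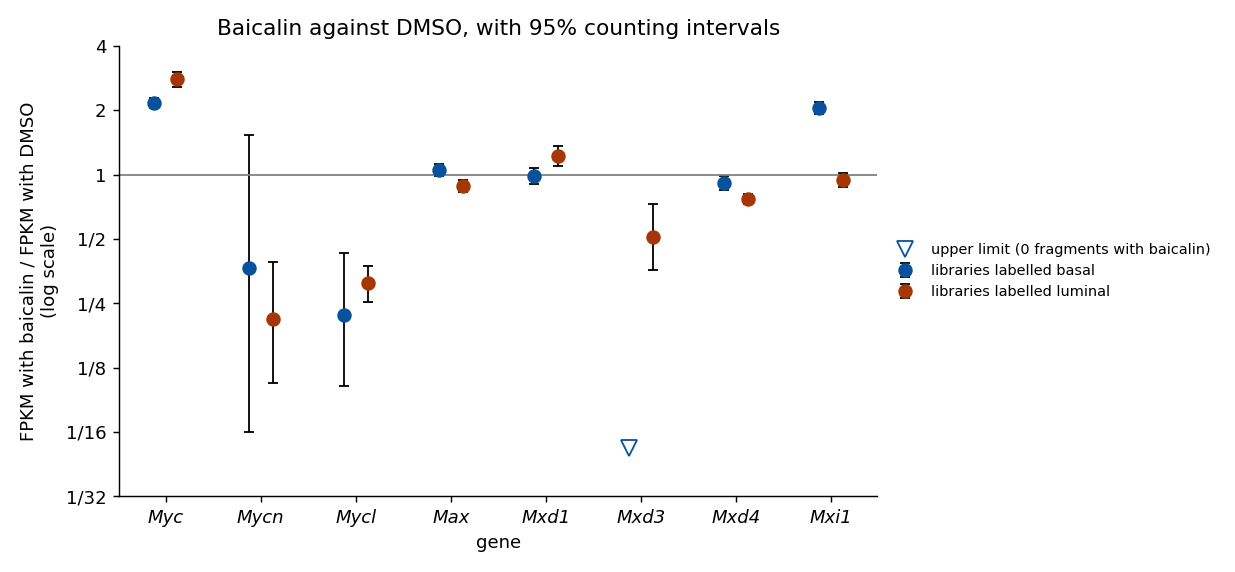
Ratio of the FPKM with baicalin to that with DMSO for each gene, on a log axis, with bars for the 95% counting intervals. Libraries labelled basal are in blue and those labelled luminal in brown. The open triangle is the ratio that 3 fragments would give for Mxd3 where 0 were counted, and not the end of a 95% interval. Myc lies above 1 and Mycl below 1 with both labels, while Mxi1 lies at 2.05 with the basal label and at 0.943 with the luminal label.

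Counted over the 7 genes above 0 in all libraries, Myc was past the threshold and higher with baicalin with the basal label, where 2.15% of all genes were, and none was lower, against 3.33% of all genes. Among the luminal-labelled libraries Myc was higher, against 2.37%, and Mycl lower, against 1.59%. By the counting intervals, Myc and Mxi1 were higher and Mycl and Mxd4 lower with the basal label. Across all genes 28.1% had an interval above 1 and 26.3% an interval below 1, so a share of 4 in 7 is near the background. In the luminal-labelled pair Myc and Mxd1 were higher, against 22.9% of all genes, and Mycn, Mycl, Max and Mxd4 were lower, against 28.7%. Max, Mxd1 and Mxi1 had changes of opposite sign with the 2 labels, as did 40.6% of all genes. No member had opposite changes with both intervals clear of 1, which 10.6% of all genes had.

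Between the labels, with DMSO, Mycl was higher with the luminal label by more than 1 on the log2 scale, against 4.71% of all genes, and Myc was lower, against 3.86%. The FPKM ratio of the label luminal to the label basal was 9.06 (6.73 to 12.4) for Mycl and 0.388 (0.357 to 0.422) for Myc. By the intervals, Mycn, Mycl, Max and Mxd4 were higher with the luminal label, against 30.5% of all genes, and Myc and Mxd1 were lower, against 30.2%. With baicalin, Mycl was higher by more than 1, against 5.24% of all genes, with a ratio of 12.8 (6.93 to 26.2), and none was lower, against 2.99%. Myc and Mxi1 were just under the threshold there, with log2 differences of -0.98 and -0.99. Mycn, Mycl and Mxd4 had intervals above 1 with baicalin, against 25.8%, and Myc, Mxd1 and Mxi1 intervals below 1, against 33.7%. Of these, Mycn rests on 3 fragments with the basal label, and its ratio of 4.26 has an interval of 1.17 to 23.3. Mxd3, which is not among the 7, was higher with the luminal label with either treatment. The interval of its ratio began at 13.4 with baicalin, and the ratio was 1.74 (1.24 to 2.47) with DMSO. The 4 comparisons share libraries in pairs, so they are not independent of each other.

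The order of the levels differed between the libraries. With the basal label and DMSO it ran Myc, Max, Mxi1, Mxd4, Mxd1, Mxd3, Mycl and Mycn, from 37.7 to 0.122 FPKM, and the intervals of Mxd4 and Mxd1 overlapped. With baicalin Mxd1 and Mxd4, again with overlapping intervals, changed places, and Mxd3 fell to the end. The intervals of Mycl and Mycn, and of Mycn and Mxd3, overlapped there too. With the luminal label and DMSO, Max (30.1 FPKM) was first, followed by Mxd4, Myc, Mxi1, Mycl, Mxd1, Mxd3 and Mycn. With baicalin Myc was first, followed by Max, Mxd4, Mxi1, Mxd1, Mycl, Mxd3 and Mycn. No neighbours overlapped in either luminal-labelled library.

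Since MYC and MXD proteins share MAX, the summed levels of the 2 groups were set against it. The sum of Myc, Mycn and Mycl was 1.56 times the level of Max with DMSO and 3.15 times with baicalin in the libraries labelled basal. In those labelled luminal it was 0.701 times with DMSO and 1.61 times with baicalin. The sum of Mxd1, Mxd3, Mxd4 and Mxi1 stayed closer to Max, at 1.17 and 1.47 times with the basal label, and 1.16 and 1.14 times with the luminal label. The MYC sum divided by the MXD sum was 1.33 and 2.14 with the basal label, and 0.606 and 1.41 with the luminal label. Only the DMSO library labelled luminal had a lower MYC sum than MXD sum. Within the MXD sum, Mxi1 made up 37.4% with DMSO and 58.0% with baicalin with the basal label, and Mxd4 was the largest part with the luminal label, at 48.4% and 42.7%. These are levels of RNA, and the proteins were not measured here.

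**Figure D3:**
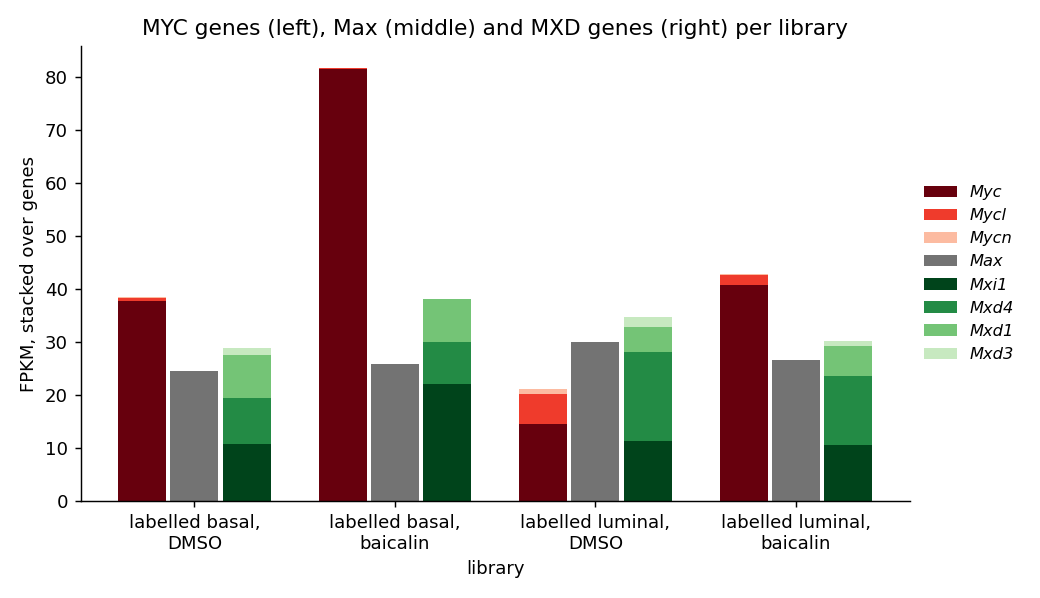
FPKM stacked over Myc, Mycl and Mycn (left bar), Max (middle bar) and Mxi1, Mxd4, Mxd1 and Mxd3 (right bar) in each of the 4 libraries. The MYC bar is 38.4 and 81.7 FPKM with the basal label and 21.1 and 42.7 FPKM with the luminal label, DMSO before baicalin, while Max stays within 24.6 to 30.1 FPKM.

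Pvt1, the long noncoding RNA gene that lies beside Myc (ENSMUSG00000097039, chromosome 15, 62037986 to 62378096), was also higher with baicalin. It had 1.39 and 5.84 FPKM with the basal label, a ratio of 4.20 (3.59 to 4.94), and 0.857 and 2.04 FPKM with the luminal label, a ratio of 2.38 (1.92 to 2.98).

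Among the other genes of the MAX network, 6 of 7 were above 0 in all libraries, and Mycs, a MYC-like gene of rodents, was at 0 in all 4. With the basal label 4 had an interval above 1 and 1 below 1, and with the luminal label 0 above and 4 below. These are 66.7% above and 16.7% below with the basal label, against 28.1% and 26.3% of all genes, and 0% and 66.7% with the luminal label, against 22.9% and 28.7%. Bmyc, another MYC-like gene of rodents, had 2.72 and 5.12 FPKM with the basal label, a ratio of 1.88 (1.34 to 2.68), and 6.31 and 6.11 FPKM with the luminal label. Mlx, the partner of the glucose-responsive factors MLXIP and MLXIPL, had 11.1 and 16.5 FPKM with the basal label, a ratio of 1.48 (1.31 to 1.68). Mnt, a MAX-bound repressor found in most cells, had 8.90 and 12.3 FPKM with the basal label, a ratio of 1.38 (1.26 to 1.52), and 17.1 and 15.7 FPKM with the luminal label. Mlxipl was low, at 0.282 and 0.187 FPKM with the basal label and 0.644 and 0.201 FPKM with the luminal label. None of the 6 passed the threshold with either label.

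Genes that MYC is known to induce did not rise with Myc as a group in the libraries labelled basal. Of the 65 listed, all above 0 in all libraries, 19 were higher and 46 lower there, with a median log2 change of -0.19, against 0.01 for all genes. The interval lay below 1 for 37 of them, 56.9% against 26.3% of all genes, and above 1 for 14, 21.5% against 28.1%. In the luminal-labelled pair the median was 0.07, against -0.02 for all genes, with 37 higher and 28 lower, and 22 had an interval above 1 and 18 below 1. These are 33.8% against 22.9% of all genes, and 27.7% against 28.7%. Ncl, the nucleolin gene, had 142 and 118 FPKM with the basal label and 129 and 108 FPKM with the luminal label. Npm1, the nucleophosmin gene, had 514 and 446 FPKM, and 512 and 413 FPKM. Odc1, the first enzyme of polyamine synthesis, had 110 and 85.3 FPKM with the basal label, a ratio of 0.774 (0.748 to 0.801), but 65.5 and 79.9 FPKM with the luminal label, a ratio of 1.22 (1.17 to 1.27).

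The largest changes of that list were not shared by its other members. Ccnd2, a D cyclin, had 0.867 and 3.85 FPKM with the basal label and 20.2 and 55.3 FPKM with the luminal label, with ratios of 4.44 (3.74 to 5.30) and 2.74 (2.64 to 2.85). Hk2, a hexokinase of glycolysis, had 10.01 and 16.8 FPKM, and 4.22 and 12.7 FPKM, with ratios of 1.68 (1.56 to 1.80) and 3.01 (2.72 to 3.34). Shmt1, a cytosolic enzyme of one-carbon metabolism, had ratios of 0.407 (0.357 to 0.464) and 0.532 (0.480 to 0.590). Of the 65 genes, 1 rose and 1 fell past the threshold with the basal label, and 2 rose and 0 fell with the luminal label. All 20 proliferation markers were lower with baicalin with both labels, with medians of -2.26 and -0.78. Mki67, a marker of dividing cells, had 54.0 and 4.06 FPKM with the basal label and 68.6 and 25.9 FPKM with the luminal label. Ccna2, cyclin A, had 26.5 and 2.15 FPKM, and 29.8 and 12.5 FPKM, and Plk1, a mitotic kinase, had 25.1 and 2.47 FPKM, and 16.1 and 9.12 FPKM. Their part in the changes of the MYC-induced genes was not tested.

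Genes that MYC is known to repress were mostly higher with baicalin. Of 8, 7 were higher with the basal label, 4 of these past the threshold, with a median of 1.12, against 2.15% of all genes past the threshold and a median of 0.01. In the other pair 5 were higher, 3 of these past the threshold, with a median of 0.43, against 2.37% of all genes and a median of -0.02. The intervals lay above 1 for 6 and below 1 for 1 with the basal label, and above 1 for 4 and below 1 for 3 with the luminal label. The shares are 75.0% and 12.5%, against 28.1% and 26.3% of all genes, and 50% and 37.5%, against 22.9% and 28.7%. Gadd45a, a stress-induced growth arrest gene, had 30.9 and 141 FPKM with the basal label, a ratio of 4.55 (4.26 to 4.87), and 7.32 and 46.6 FPKM with the luminal label. Cdkn1a, which encodes the kinase inhibitor p21, had 29.0 and 106 FPKM, and 24.7 and 72.7 FPKM. Fth1, the ferritin heavy chain gene, had 1078 and 3776 FPKM, and 1516 and 3062 FPKM. As background, Cdkn1a and Gadd45a are also known targets of p53, and Fth1 of NRF2. Ndrg1, a gene of differentiation and hypoxia, moved in opposite directions, with ratios of 1.84 (1.77 to 1.92) and 0.499 (0.478 to 0.522). Txnip, an inhibitor of thioredoxin, did so too, with ratios of 2.72 (2.51 to 2.95) and 0.570 (0.555 to 0.585).

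**Figure D4:**
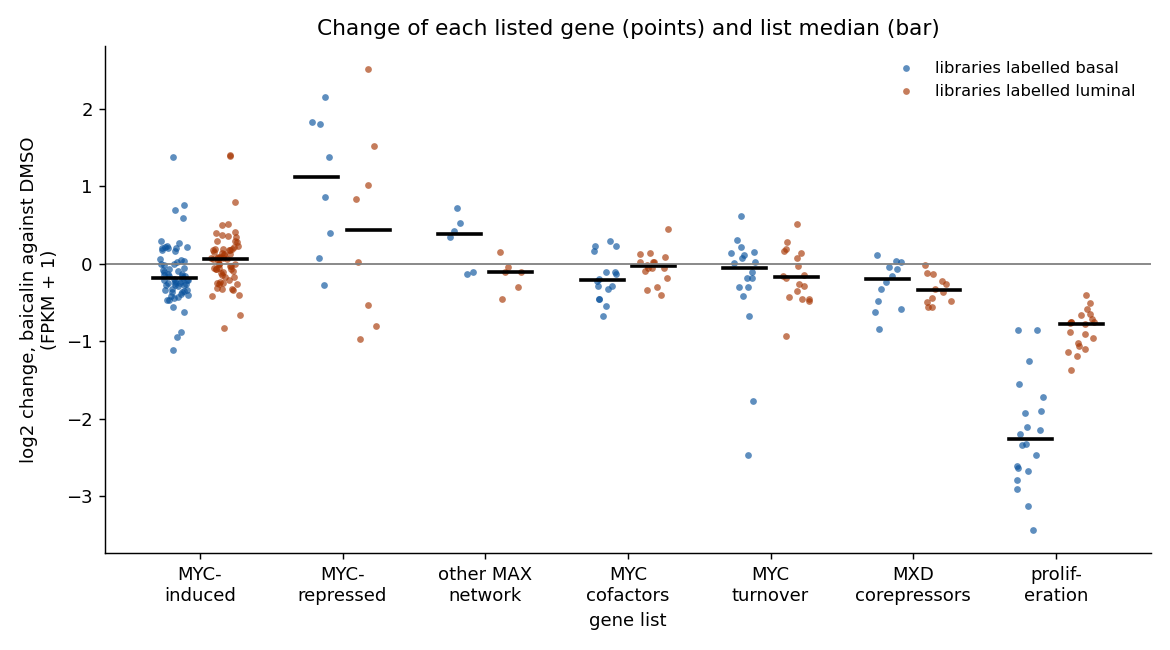
Log2 change with baicalin, with 1 FPKM added, for each gene (point) of 7 lists, with the libraries labelled basal in blue, those labelled luminal in brown, and a bar at each list's median. The MYC-induced genes centre on -0.19 and 0.07, the MYC-repressed genes on 1.12 and 0.43, and all 20 proliferation markers lie below 0 with both labels.

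The cofactors through which MYC acts were somewhat lower with the basal label. Of 16, 12 had an interval below 1 and 4 above 1 with the basal label, with a median log2 change of -0.21, and 5 and 4 with the luminal label, with a median of -0.04. The shares below and above 1 are 75.0% and 25.0% with the basal label, against 26.3% and 28.1% of all genes, and 31.2% and 25.0% with the luminal label, against 28.7% and 22.9%. Actl6a, a subunit of chromatin remodelling complexes, had 22.7 and 13.9 FPKM with the basal label and 19.4 and 14.4 FPKM with the luminal label. Ruvbl1, an ATPase of some of these complexes, had 31.9 and 21.5 FPKM, and 21.6 and 18.8 FPKM. Hcfc1, a cofactor that binds MYC, had 36.4 and 26.3 FPKM, and 34.9 and 32.8 FPKM.

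Of the 12 genes of the corepressor complexes that MXD proteins and other factors recruit, 7 had an interval below 1 and 1 above 1 with the basal label, with a median of -0.20. These are 58.3% against 26.3% of all genes, and 8.33% against 28.1%. In the luminal-labelled pair all 12 were lower, 11 with an interval below 1, 91.7% against 28.7% of all genes, with a median of -0.34. Hdac1, a histone deacetylase, had 35.4 and 22.6 FPKM with the basal label and 39.0 and 26.2 FPKM with the luminal label. Sap30, a SIN3-associated subunit, had 20.9 and 11.2 FPKM, and 24.1 and 16.8 FPKM. Rbbp7, a histone-binding subunit, had 90.0 and 59.5 FPKM, and 98.9 and 66.8 FPKM. None of the 12 passed the threshold with either label.

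Of 18 genes that control the turnover of MYC protein, 6 had an interval above 1 and 8 below 1 with the basal label, with a median of -0.05. With the luminal label 5 were above 1 and 11 below 1, with a median of -0.17. The shares above and below 1 are 33.3% and 44.4% with the basal label, against 28.1% and 26.3% of all genes, and 27.8% and 61.1% with the luminal label, against 22.9% and 28.7%. Aurka, a mitotic kinase that shields MYCN from degradation, had 17.3 and 2.32 FPKM with the basal label, a ratio of 0.134 (0.110 to 0.162), and 8.98 and 6.30 FPKM with the luminal label. Cip2a, which blocks the phosphatase that marks MYC for degradation, had ratios of 0.224 (0.195 to 0.256) and 0.482 (0.437 to 0.530). Skp2, a ubiquitin ligase subunit that acts on MYC, had 1.36 and 0.476 FPKM with the basal label and 1.43 and 0.812 FPKM with the luminal label. Fbxw7, the ubiquitin ligase subunit that marks phosphorylated MYC, had 7.92 and 8.87 FPKM with the basal label and 10.3 and 9.28 FPKM with the luminal label. Aurka and Cip2a are also genes of dividing cells, which moved with the proliferation markers.

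The genes with the most similar profile over the 4 libraries were found among 8044 genes with a mean of at least 5 FPKM, by the root mean square difference of log2(FPKM + 1) after the mean of each gene was removed. For Myc these were Smox, Smurf1 and Rnf11, at 0.107, 0.124 and 0.126. Smox had 20.5 and 40.8 FPKM with the basal label and 8.72 and 21.6 FPKM with the luminal label. For Mycl they were Muc15, Slc27a3 and Pcdh18, at 0.133 to 0.166, and for Mxi1 Zadh2, Zscan26 and Gid4, at 0.0445 to 0.0671. Zadh2 had 13.4 and 26.7 FPKM with the basal label and 12.8 and 12.9 FPKM with the luminal label. For Max they were Spata5, Ndufs3 and Map2k7, for Mxd1 Gdpd1, Actr6 and Utp20, and for Mxd4 mt-Co3, Tcp11l2 and Nudt14, all within 0.0396. Likeness over 4 libraries describes these libraries only.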

How the data were processed

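Poly(A) RNA of 4 libraries was sequenced after stranded library preparation. The authors deposited FPKM per gene, with no other scaling between libraries named. The study's methods give HISAT2, GRCm38, Ensembl release 94 and featureCounts 1.5.0, whereas the submitters' processing notes list Bowtie 0.12.2 and the builds mm8 and GRCm38. Whether counting used strand is not given in the sources used here.

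Exon lengths and positions came from GENCODE mouse release 21 (GRCm38), which held 54409 of the genes. Depth was the number of fragments that made low FPKM values whole. Of values under 50 fragments, 98.9% to 99.1% were whole within 0.1 fragments. Ratio intervals are exact Clopper-Pearson intervals and level intervals exact Poisson intervals. The study's t-test needs replicates and was not run. The code was checked on simulated data. Shared stretches were searched with BLAST (at least 95% identity over 200 bases).

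Genes were named by rule: the 8 genes, from each list the 3 with the largest change, the 3 most similar profiles, and keratin and actin markers. Of the cell marker lists, the rule's genes are given only where used in the check of the labels. Ncl, Npm1, Odc1, Mnt, Ndrg1, Txnip, Fbxw7, Ptprc, Adgre1, Itgam, Mycs, Wfdc5, Wif1 and the overlapping genes were added after their values were seen. The genes and the lists (cell markers, MAX network, cofactors, corepressors, turnover, MYC-induced, MYC-repressed and proliferation genes) were chosen with earlier results of these data known. All 217 list entries were found. Alternatives were 2 pseudocounts, 3 filters, 3 scalings and 2 thresholds. Values were computed in Python 3.11.15 with scipy 1.17.1, pandas 2.3.3 and numpy 2.4.6, and plotted with matplotlib 3.10.9.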

Additional observations from a re-analysis of the deposited data

How the results depend on the processing

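With 1 library per condition, differences between cultures and effects of baicalin cannot be told apart, and no replicate could be left out. No paired analysis was possible because each group holds 1 library. The number of genes of the family past the threshold, 1 for baicalin with the basal label, became 3 with a pseudocount of 0.1, 4 with none, 2 without a filter, 2 with FPKM of at least 1 in a library, 2 with TPM, 3 with a threshold of 0.5 and 0 with a threshold of 2. With the luminal label it went from 2 to 3 (Mycn added) with a pseudocount of 0.1, with none, with TPM and with a threshold of 0.5, and to 0 with a threshold of 2. The share of all genes past the threshold there was 3.95%, and in that order 11.0%, 20.8%, 7.29%, 16.3% and 0.596%. Between the labels with DMSO the number went from 2 to 3 (Mycn added) with a pseudocount of 0.1, with none and with TPM, and to 5 and 1 with thresholds of 0.5 and 2. The share of all genes was 8.56%, and in that order 19.6%, 28.6%, 14.5%, 26.5% and 1.88%. Between the labels with baicalin the number went from 1 to 3 with a pseudocount of 0.1, 3 with none, 2 without a filter, 2 with FPKM of at least 1, 3 with TPM, 4 with a threshold of 0.5 and 0 with a threshold of 2. The share of all genes was 8.23%, and in that order 18.9%, 27.6%, 3.0%, 11.8%, 14.2%, 24.8% and 1.69%. The genes gained were Mxi1, Mycl, Mycn, Myc and, where the filter let it in, Mxd3, and also Mxd1 and Mxd4 with the threshold of 0.5. The share of all genes past the threshold for baicalin with the basal label was 5.48%, and 13.6% with a pseudocount of 0.1, 22.3% with none and 9.55% with TPM. It was 2.0% without a filter, 7.88% with FPKM of at least 1, and 19.3% and 0.973% with thresholds of 0.5 and 2. Of 216 single log2 changes under the alternatives, 186 stayed within their counting interval and 2 changed sign, both with TPM: Mxi1 between the labels with DMSO, from 0.06 to -0.04, and Max between the labels with baicalin, from 0.03 to -0.03. The medians of the 6 MYC-related lists stayed within the 95% order-statistic intervals of the main medians. For the MAX network list (6 genes) and the MYC-repressed list (8 genes) that interval spans all genes of the list, so it could hardly be left. Depth limits Mycn most, with 3 to 58 fragments per library.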
